A study of Mus musculus with 4 samples.

Results

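Spp1-high cells grown without 5-azacytidine (5-Aza) made up 803 of the 8437 cells kept from the DMSO libraries of H3WT- and H3R26C-expressing mesenchymal progenitor cells. A cell was kept when its barcode held at least 5000 unique molecular identifiers (UMIs, each marking 1 captured RNA molecule), at least 1500 genes and at most 20% of UMIs from mitochondrially encoded genes. It was called Spp1-high when Spp1 made up 0.1% or more of its UMIs. All values were set, within each library, against the 5325 kept cells with no UMI of Spp1. Because the cells were selected on Spp1, its own level and every difference from the cells without it describe the selection and received no test.

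The cells are C3H10T1/2, a mouse embryonic fibroblast line used as a mesenchymal progenitor, carrying a lentiviral transgene for tagged human histone H3.1 driven by an EF1 promoter. The transgene was either wild type (H3WT) or had arginine 26 of the histone tail replaced by cysteine (H3R26C), and the endogenous H3 genes remained in both lines. The DMSO libraries received vehicle in place of 5-Aza, a DNA methyltransferase inhibitor that lets this line form muscle, fat and other mesenchymal cells. Each of the 4 conditions was profiled once on the 10x Genomics platform, giving 39891 barcodes and 22049 kept cells in all. With 1 library per condition, no p-value is given, and intervals cover counting error only (exact 95% intervals). An exact two-sided sign flip of the within-library differences of the 2 DMSO libraries could not go below p = 0.5.

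Spp1 encodes osteopontin, a secreted, acidic phosphoglycoprotein of mineralised matrix and of injured or remodelling tissue. It binds integrins through an RGD motif and also binds CD44, restrains mineral crystal growth and acts as an attractant for migrating cells. In the mesenchyme it is known as an early marker of bone-forming cells, but it is also made by fibroblasts, smooth muscle cells, macrophages and many tumour cells, so it does not name a cell type on its own.

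Spp1 (ENSMUSG00000029304) lies on chromosome 5 (GRCm38, GENCODE M21, 104435118 to 104441050, plus strand). RefSeq gives it 2 starts, and the 250 bases before the first are shown because this is the gene that picked the cells, and because a subunit of AP-1 ranked among the leading genes below. The window is chr5:104434861-104435110 (GRCm38.p6, plus strand, 5′ to 3′), with capitals marking the motif letters found.

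Spp1 promoter: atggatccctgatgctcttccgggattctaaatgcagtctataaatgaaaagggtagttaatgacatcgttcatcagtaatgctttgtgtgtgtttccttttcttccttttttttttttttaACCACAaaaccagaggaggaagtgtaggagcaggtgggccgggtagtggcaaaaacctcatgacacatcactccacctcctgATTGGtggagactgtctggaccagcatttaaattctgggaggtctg

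Both strands were searched for 4 sets of letters, namely the AP-1 element TGANTCA, the RUNX core ACCACA, the CCAAT box CCAAT and the E2F site TTTNGCGC. The window held the RUNX letters 128 bases before the start and the CCAAT letters, read on the other strand, 46 bases before it. The AP-1 and E2F letters were not in this window, which says nothing of AP-1 or E2F at Spp1. The window before the second start (104435942 to 104436191) held none of the 4 sets of letters and is not shown. Over 32851 RefSeq windows of the same length, 14.1% held the RUNX letters, 33.9% the CCAAT letters, 6.75% the AP-1 letters and 1.13% the E2F letters.

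Spp1-high cells were 240 of 3710 kept cells (6.47%, 5.70 to 7.31) in H3WT DMSO and 563 of 4727 (11.9%, 11 to 12.9) in H3R26C DMSO. In H3WT DMSO the Spp1 share of these cells ran from 0.1001% through a median of 0.168% to 1.32%. In H3R26C DMSO it ran from 0.1001% through 0.217% to 1.07%. Summed over the group, Spp1 stood at 2229 and 2672 CPM (a gene's share of the UMIs, scaled to the usual total), against 269 and 300.5 CPM in kept cells that had some Spp1 but less than the threshold. Spp1-high cells thus held 67.1% of all Spp1 UMIs among kept cells of H3WT DMSO and 82.9% of those of H3R26C DMSO.

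The threshold lay within a continuous range of Spp1 shares. Just inside it, from 0.1% to 0.125%, lay 53 H3WT and 85 H3R26C cells (median 0.110% and 0.114%), and just outside, from 0.08% to 0.1%, lay 52 and 92 (median 0.0907% and 0.0891%). Barcodes under 5000 UMIs, which hold free RNA and broken or small cells, had Spp1 at 95.1 CPM in H3WT DMSO and 113 CPM in H3R26C DMSO, and a UMI of Spp1 was seen in 6.57% and 6.88% of them. Thinned to 5000 UMIs each, 7.47% of H3WT (6.64 to 8.36) and 13.1% of H3R26C cells (12.1 to 14.1) reached the threshold. H3R26C thus had the higher share at equal depth too, but the intervals hold no spread between cultures. The libraries were single cultures, and genotype and culture cannot be told apart.

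**Figure D1:**
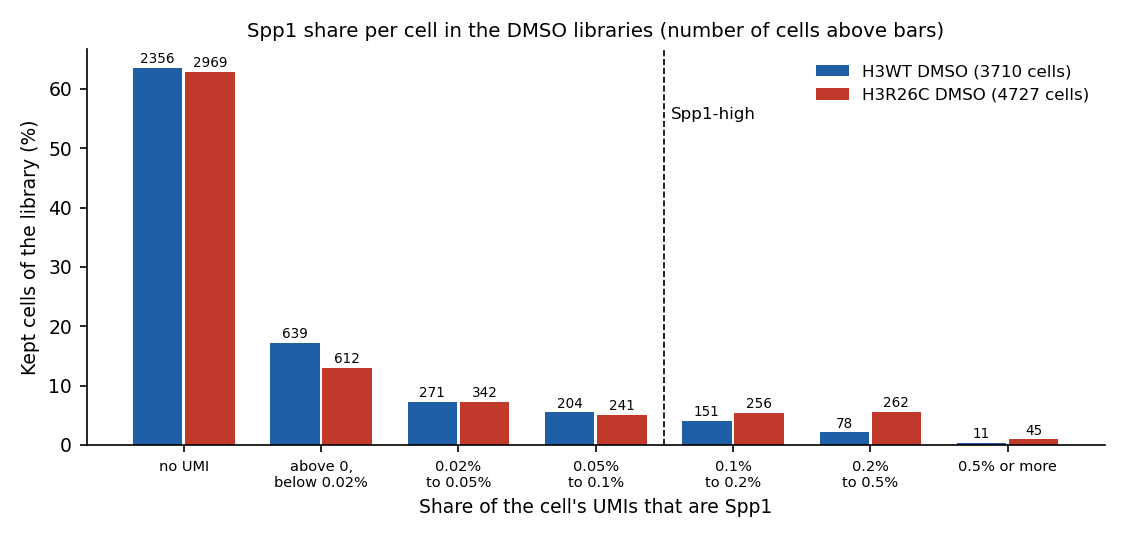
Percent of kept cells (y axis) of the H3WT DMSO and H3R26C DMSO libraries in bins of the Spp1 share of the cell's UMIs (x axis), with the number of cells above each bar. Most cells had no Spp1 UMI (2356 and 2969), and no bin beside the 0.1% threshold (dashed line) was empty, with 204 and 241 cells just below it and 11 and 45 cells at 0.5% or more.

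Spp1-high cells were deeper than cells without Spp1, and this applies to every comparison that follows. Their median depth was 27626 UMIs against 21136 in H3WT DMSO and 20105 against 15979 in H3R26C DMSO. Mitochondrial UMIs were 3.49% against 3.88% and 2.00% against 2.95% (medians), and ribosomal protein UMIs 13.8% against 16.3% and 15.5% against 15.4%. Doublets were not removed, and the part of paired cells in these values was not tested. The DMSO libraries shared 54 barcodes, 24 of them kept in both.

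Spp1-high cells had higher levels of Hmga2, Fosl1, several chemokines and replication genes such as Tk1 and Pclaf, and lower levels of most elastic fibre genes tested. Levels were UMIs summed over each group and scaled to CPM with Spp1 left out of the totals, and a log2 ratio (Spp1-high over no Spp1) was taken after adding 1 CPM. Of 6495 genes with at least 20 CPM in either group of both libraries, 189 (2.91%) were at least 2-fold higher in Spp1-high cells of both DMSO libraries and 110 (1.69%) at least 2-fold lower. Of the 189, 127 were under 20 CPM in the Spp1-free cells of at least 1 library, and of the 110, 59 were likewise under it in the Spp1-high cells, so these reached the minimum there only through the group in which they were high. Counts over gene lists are therefore descriptions, and nothing is read from how many members were called. Beside every list count over all cells stand the shares of all tested genes, 2.91% higher and 1.69% lower. Taken alone, H3WT DMSO had 3.68% of its tested genes higher and 2.05% lower, and H3R26C DMSO 5.71% higher and 4.56% lower. The ratios had the same sign in both libraries for 5176 genes, and their medians over all tested genes were 0.07 and -0.01.

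The leading gene was Hmga2 (chromosome 10, 120361275 to 120476469, minus strand), an architectural chromatin protein of embryonic mesenchyme that is silent in most adult cells. It stood at 41.1 CPM in Spp1-high and 0.693 CPM in Spp1-free cells of H3WT DMSO, and at 78.4 and 2.29 CPM in H3R26C DMSO, which is 59.4-fold (41.7 to 86.9) and 34.2-fold (28.1 to 42.0). Cells with an Hmga2 UMI were 24.2% of Spp1-high and 1.40% of Spp1-free cells in H3WT, and 48.0% and 3.20% in H3R26C. Read the other way, 58 of 158 Hmga2-positive H3WT cells and 270 of 560 Hmga2-positive H3R26C cells were Spp1-high. Thinned to 5000 UMIs, Hmga2 was seen in 10.0% against 0.382% and in 21.7% against 1.08%. Hmga1, its relative, stood at 104 against 9.42 CPM and 198 against 12.5 CPM, although its reads can be shared with a near-identical gene copy and its level is therefore uncertain. They were the 2 of 4 oncofetal genes tested that were past 2-fold higher, beside 2.91% of all genes. Both reached the minimum only through the Spp1-high group. Igf2bp2, an RNA-binding protein of the fetal programme, had log2 ratios of 0.17 and 0.66.

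Among the subunits of AP-1, a transcription factor switched on by growth and stress signals, Fosl1 (Fra-1, chromosome 19, 5447547 to 5455946) stood apart by its sign. It was higher in Spp1-high cells, at 38.3 against 1.62 CPM in H3WT (23.6-fold, 18.4 to 30.6) and 85.5 against 3.03 CPM in H3R26C (28.2-fold, 23.8 to 33.8). Of the 7 AP-1 genes tested, Fosl1 was the 1 past 2-fold higher, while the immediate-early subunits Fos and Fosb were past 2-fold lower. Fos stood at 479 against 1072 CPM and 214 against 518 CPM, and Fosb at 53.1 against 129 CPM and 17.2 against 49.2 CPM. Fosl1 met the expression minimum only through the Spp1-high group, and Fosb in H3R26C only through the Spp1-free cells. The most abundant subunits, Jund, Junb and Jun, had log2 ratios of -0.72 and -1.17, -0.59 and -0.57, and -0.46 and -0.04. With Spp1-free cells weighted to the UMI distribution of the Spp1-high cells, Fosl1 stayed past 2-fold higher (log2 3.82 and 4.12), and neither Fos nor Fosb was past 2-fold lower in both libraries.

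Chemokines, secreted proteins that direct the movement of leukocytes, formed a further group. Ccl2, the main monocyte attractant, stood at 247 against 16.6 CPM in H3WT DMSO (14.9-fold, 13.7 to 16.2) and at 612 against 38.8 CPM in H3R26C DMSO (15.8-fold, 15 to 16.6). Its neighbour on chromosome 11, Ccl7, stood at 52.7 against 11.6 CPM and 363 against 16.6 CPM, and Cxcl12, the stromal ligand of Cxcr4, at 877 against 381 CPM and 1412 against 496 CPM. These were the 3 of 5 chemokine and NF-kB target genes tested that were past 2-fold higher (2.91% of all genes). None was past 2-fold lower (1.69%). In H3WT, Ccl2 and Ccl7 reached the 20 CPM minimum only through the Spp1-high group, as did Ccl7 in H3R26C, and of the 3 only Cxcl12 was past 2-fold in both libraries without cycle-gene UMIs (described below). In those cells Ccl7 changed sign in H3WT, with log2 ratios of -1.11 and 1.85, and was under the minimum in at least 1 library. Without the 10% of kept cells with the most UMIs, Ccl7 had -0.48 and 3.76.

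Ccl5 and Ccl9 were also among the 15 highest ratios. Ccl5 had 207 UMIs in the Spp1-high and 5 in the Spp1-free cells of H3WT, and 733 and 169 in those of H3R26C (log2 4.76 and 3.76). Ccl9 stood at 31.8 against 3.17 CPM and 29.2 against 2.45 CPM. In H3WT DMSO the chemokine values rested on few cells, since a single cell held 23.8% of the Ccl2 UMIs and 26.6% of the Ccl5 UMIs of the group. In H3R26C DMSO the corresponding shares were 9.34% and 8.73%. Leaving out the 10% of kept cells with the most UMIs took the log2 ratio of Ccl2 from 3.82 to 0.35 and that of Hmga1 from 3.33 to 0.60 in H3WT, and to 3.14 and 3.07 in H3R26C.

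Of 8 matrix metalloproteinase and inhibitor genes tested, 2 were past 2-fold higher and none lower, with median log2 ratios of -0.21 and -0.68, beside 2.91% of all genes higher. Mmp9 was tested only because of its level in Spp1-high cells, and Timp1 passed the minimum in both groups. Mmp9, the gelatinase that digests denatured collagen, stood at 20.9 against 0.257 CPM in H3WT (81.3-fold, 46.1 to 156) and at 74.4 against 0.879 CPM in H3R26C (84.6-fold, 62.3 to 118). Timp1, which inhibits Mmp9, stood at 252 against 61.4 CPM and at 248.9 against 69.5 CPM. The most abundant of the list, Timp2, Timp3 and Mmp2, had ratios of -0.10 and -0.64, -0.05 and 0.04, and -0.44 and -1.23. Among the other highest genes, Itga6, a laminin-binding integrin chain, had log2 ratios of 3.02 and 3.4. Chst1, a keratan sulfate sulfotransferase, had 3.46 and 3.05, and Tmem176b, a membrane protein of immune and stromal cells, 3.81 and 3.09. Tmem176b together with Ccn3 and Lxn was detected in 15% of Spp1-high and 0.382% of Spp1-free H3WT cells, and in 62.7% and 5.69% of H3R26C cells.

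Of the remaining 5 of the 15 highest genes, 4 act in DNA replication or at the centromere. Tk1, the salvage enzyme for thymidine, stood at 93.4 against 8.69 CPM and 196 against 19 CPM. Pclaf, the PCNA-associated factor, stood at 110 against 13.5 CPM and 202 against 22.3 CPM. Uhrf1, which carries DNA methylation through replication, had log2 ratios of 3.37 and 3.15, the centromere protein gene Cenpm 2.95 and 3.08, and the fifth, Nrm, an inner nuclear membrane protein, 3.19 and 3.38. All these ratios kept their sign in both libraries when Spp1-free cells were weighted to the depth of the Spp1-high cells, with Tk1 at 1.69 and 1.47 and Pclaf at 1.08 and 1.43.

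Of 27 S phase genes tested, 20 were past 2-fold higher in both libraries (2.91% of all genes) and none lower (1.69%). Their median log2 ratios were 1.61 and 1.85. Of the 20, 16 met the expression minimum in at least 1 library only through the Spp1-high group. Of 32 G2 and M phase genes, 21 were higher and none lower (medians 2.01 and 2.56), beside 2.91% and 1.69% of all genes. Of the 21, 18 were admitted in that way, and Hmgb2 stood at 247 against 53.03 CPM and 386 against 58.7 CPM. Of all genes behind the medians, 16 of 27 and 21 of 32 were likewise admitted, so the medians are descriptions too. The G2 and M phase count depended on how depth was treated. Against depth-weighted Spp1-free cells none of 36 was past 2-fold in both libraries (medians -0.05 and 0.79), while in cells thinned to 5000 UMIs all 16 of the 21 that were still tested were called, and without the 10% of kept cells with the most UMIs 6 of 8. For the S phase list, 13 of 27 were still past it (1.02 and 1.10), beside 1.64% of all 6454 genes tested in that way. Thinned, 12 of the 17 S phase genes still tested were called, and without the deepest 10% of cells none of 6. Of all genes tested in these settings, 2.07% were past 2-fold higher when thinned and 1.07% without the deepest 10% of cells. Counted per cell, a UMI of any of 7 cycle genes (Top2a, Mki67, Cdk1, Ube2c, Rrm2, Hells and Clspn) was found in 53.3% of Spp1-high and 31.2% of Spp1-free cells in H3WT, and in 70.3% and 29.7% in H3R26C. At 5000 UMIs per cell these shares were 26.3% and 10.2%, and 50.1% and 13.0%.

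**Figure D2:**
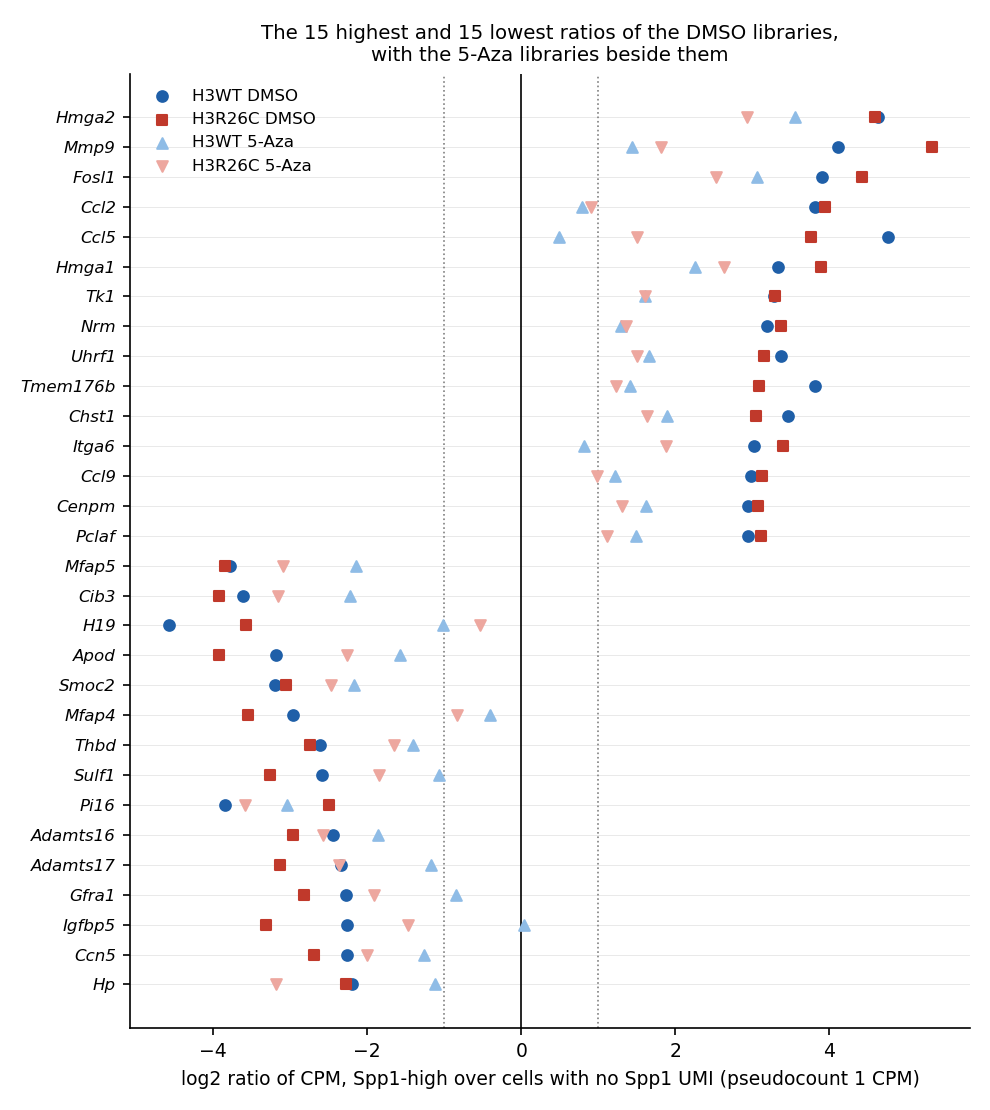
Log2 ratio of CPM in Spp1-high over Spp1-free cells (x axis, pseudocount 1 CPM) for the 15 highest and 15 lowest genes of the DMSO libraries (y axis), with 1 point per library and dotted lines at 2-fold. Most 5-Aza points lie nearer to 0 than the DMSO points of the same gene, and Igfbp5 in H3WT 5-Aza (0.04) is on the other side of 0 from its DMSO points.

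Most elastic fibre genes tested had lower levels in Spp1-high cells. Elastic fibres are built from tropoelastin deposited on a microfibril scaffold and crosslinked by lysyl oxidases. Of 10 such genes tested, 6 were at least 2-fold lower in both libraries and none higher, beside a background of 1.69%, with median log2 ratios of -1.18 and -1.35. In at least 1 library, 3 of the 6 met the minimum only through the Spp1-free cells. Mfap5, a microfibril protein, had the lowest ratio of all genes by the ranking: it stood at 22.0 against 316 CPM in H3WT (14.3-fold lower, 12.3 to 16.9) and at 12.6 against 194.5 CPM in H3R26C (15.45-fold lower, 13.2 to 18.2). Mfap4, a partner of microfibrils, stood at 3.76 against 36.1 CPM and 3.23 against 48.4 CPM. Tropoelastin itself (Eln) stood at 162 against 517 CPM and 18.97 against 173 CPM.

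The fibulin Fbln5, which links elastin to cells, the crosslinking enzyme Lox and the microfibril backbone Fbn1 completed the 6. Their log2 ratios were -1.43 and -2.03, -1.14 and -1.66, and -1.22 and -1.05. Without cycle-gene UMIs, Fbln5 (-0.93 and -1.31), Lox (-0.87 and -1.16) and Fbn1 (-0.94 and -0.77) were not past 2-fold in both libraries. Thinned to 5000 UMIs, Lox (-0.90 and -1.29) and Fbn1 (-1.12 and -0.87) also missed it. Emilin1, picked out after its values were seen, had ratios above 0 (0.48 and 0.06). None of the 11 collagen genes tested was past 2-fold in both libraries, and Col1a1, Col1a2 and Col6a1 had ratios of -0.32 and -0.38, -0.50 and -0.46, and 0.12 and 0.26. The 7 small leucine-rich proteoglycans tested were mixed: Dcn (-1.34 and -2.32) and Ogn (-1.19 and -1.18) were past 2-fold lower, Prelp was past 2-fold higher (2.04 and 1.86), and the most abundant, Bgn, stood at 2162 against 2062 CPM and 1917 against 1878 CPM. Without cycle-gene UMIs Dcn (-0.88 and -1.59) and Ogn (-0.69 and -0.46) were not past 2-fold in both libraries.

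The other genes with the lowest ratios included secreted proteins and receptors. Apod, a secreted lipid-binding protein, was seen in 35.0% of Spp1-high and 84.7% of Spp1-free H3WT cells thinned to 5000 UMIs, and in 24.7% and 80.4% of H3R26C cells. Its level was 135 against 1231 CPM and 77.3 against 1195 CPM. Smoc2, a calcium-binding matricellular protein, stood at 87.4 against 810 CPM (9.27-fold lower, 8.56 to 10.0) and 92.7 against 779 CPM (8.40-fold lower, 7.93 to 8.92). Cib3, of the calcium- and integrin-binding family, stood at 11.7 against 155 CPM and 8.31 against 141 CPM.

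The imprinted growth-restraining RNA H19 stood at 1.26 against 52.8 CPM and 9.12 against 120 CPM. A single cell held 88.9% of its 9 UMIs in Spp1-high H3WT cells and another 54.0% of its 113 UMIs in Spp1-high H3R26C cells. Pi16, a marker of universal fibroblasts in connective tissue, had log2 ratios of -3.85 and -2.50, and Thbd, the thrombin receptor thrombomodulin, -2.62 and -2.75. Sulf1, which trims heparan sulfate, had -2.59 and -3.26, and the metalloproteinases Adamts16 and Adamts17 had -2.45 and -2.97 and -2.34 and -3.13. Gfra1, a GDNF co-receptor, the IGF-binding protein gene Igfbp5, the matricellular Ccn5 and haptoglobin (Hp) had ratios from -2.28 to -2.20 in H3WT and from -3.32 to -2.28 in H3R26C.

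**Figure D3:**
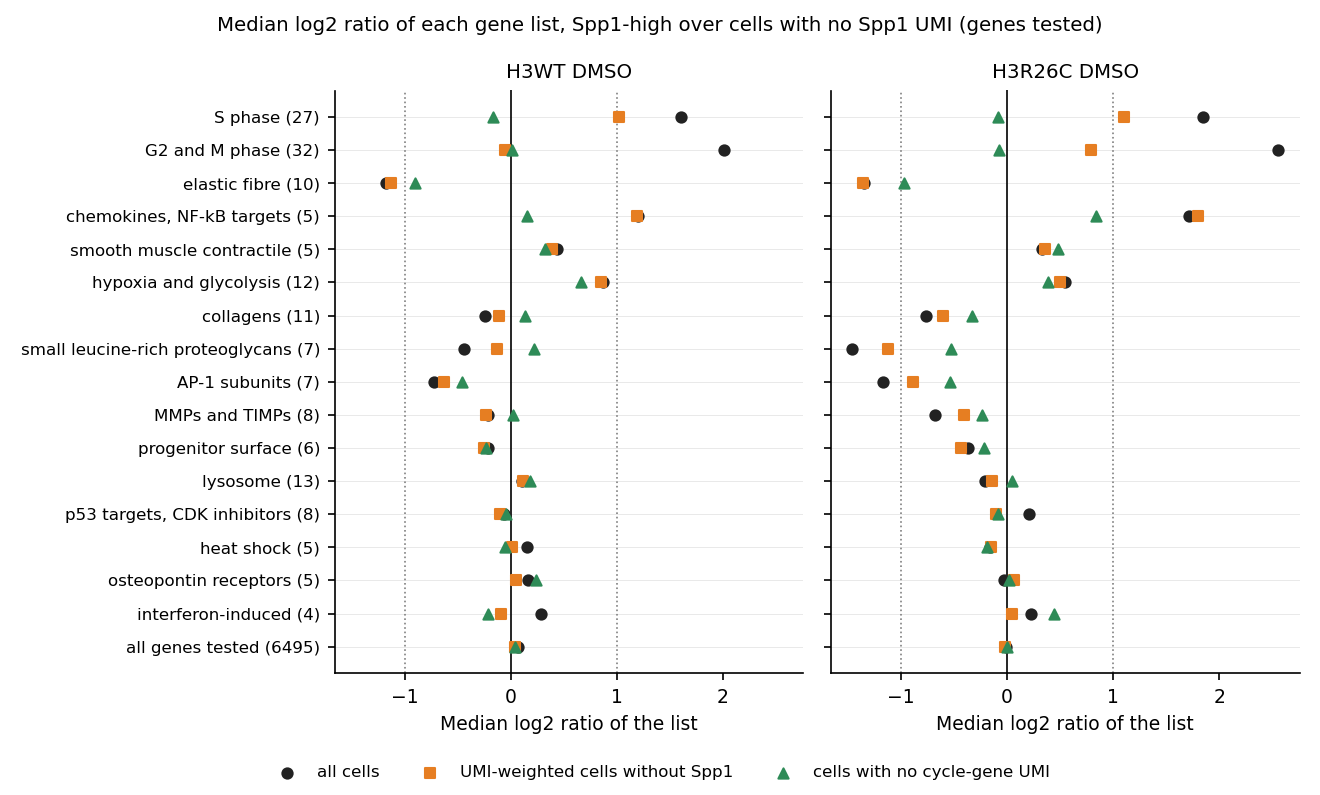
Median log2 ratio of 16 gene lists and of all genes tested (y axis, with the number tested in all cells) in H3WT DMSO and H3R26C DMSO (panels), for all cells, against depth-weighted cells without Spp1, and in cells with no cycle-gene UMI. S phase and G2 and M phase medians were far above 0 in all cells. There, 16 of 27 and 21 of 32 genes were tested in at least 1 library only through the Spp1-high group. These medians were near 0 without cycle-gene UMIs (-0.17 to 0.01). In that setting the cells were chosen by genes of these lists, and 9 genes of each were tested. Elastic fibre medians were at or below -0.90 in every setting.

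Both groups were next reduced to cells with no UMI of the 7 cycle genes, leaving 112 Spp1-high H3WT and 167 H3R26C cells. The lack of these UMIs does not show that a cell was not dividing. Of 6255 genes, 40 (0.639%) were then higher and 69 (1.10%) lower in both libraries, and 30 of the 40 and 62 of the 69 were among the genes called over all cells. None of the 15 highest genes was among the 40, since all were under 20 CPM in both H3WT groups. Hmga2 stood at 9.18 against 0.598 CPM in H3WT and 21.4 against 2.09 CPM in H3R26C, Mmp9 at 4.41 against 0.329 CPM and 22.8 against 0.877 CPM, and Fosl1 at 7.34 against 1.73 CPM and 27.0 against 2.66 CPM. In H3WT, Ccl2 (14.7 against 16.4 CPM), Hmga1 (11.7 against 9.42 CPM) and Tmem176b (1.84 against 0.718 CPM) had log2 ratios of -0.15, 0.29 and 0.72, beside 1.38, 1.68 and 3.16 in H3R26C. All of the 15 lowest genes were among the 69, and Mfap5, Apod and Smoc2 had ratios of -3.95 and -3.39, -2.66 and -3.54, and -2.68 and -2.74. Within the elastic fibre list, 3 of 10 genes were still past 2-fold lower.

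Among smooth muscle genes, 2 of 5 were past 2-fold higher over all cells (2.91% of all genes) and among cells without cycle genes (0.639%). Acta2, the actin of smooth muscle and myofibroblasts, stood at 536 against 130 CPM and 928 against 134 CPM over all cells, and Tpm2, a tropomyosin, at 153 against 58.3 CPM and 246 against 81.4 CPM. Without cycle-gene UMIs Acta2 stood at 528 against 127 CPM and 929 against 124 CPM, and Tpm2 at 132 against 59.9 CPM and 186 against 78.9 CPM. The abundant Tpm1 had ratios of -0.71 and -0.85. The smooth muscle markers Tagln, Cnn1 and Myh11 had 1, 1 and 6 UMIs in Spp1-high H3WT cells and 127, 2 and 4 in Spp1-high H3R26C cells. Acta2 and Tagln were both detected in 1 Spp1-high H3WT cell (0.417%) and 48 Spp1-free H3WT cells (2.04%), and in 43 (7.64%) and 75 (2.53%) H3R26C cells, so the order was opposite in the 2 libraries.

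Receptors of osteopontin were measured in the same cells. Cd44 was the 1 of 5 tested receptor genes past 2-fold, at 38.1 against 9.72 CPM in H3WT and 43.6 against 16.7 CPM in H3R26C, but not without cycle-gene UMIs (log2 1.41 and 0.90). It was tested only through the Spp1-high group, and 2.91% of all genes were higher. The abundant integrin chains Itgb1, Itga5 and Itgb5 had ratios of 0.23 and -0.06, 0.06 and -0.03, and -0.36 and -0.32. Itgav, the partner chain of the vitronectin-type osteopontin receptors, had 0.16 and 0.32. Itgb3 stood below the expression minimum, at 18.8 against 3.96 CPM and 16.95 against 6.503 CPM.

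Bone formation genes showed no common direction. Of 2 osteoblast genes tested 1 was lower, and of 4 regulators of mineral 1 was higher and 1 lower. The lower gene was Phex in both lists, and of all genes 2.91% were higher and 1.69% lower. Runx2, the master regulator of the osteoblast lineage, stood at 52.6 against 48.1 CPM in H3WT and 39.5 against 40.4 CPM in H3R26C. Sp7, Alpl and Ibsp had 0, 0 and 0 UMIs in Spp1-high H3WT cells and 1, 4 and 1 in Spp1-high H3R26C cells. Phex, a protease of bone cells, was past 2-fold lower, at 123 against 293 CPM and 48.8 against 327 CPM, but missed it in H3WT with depth-weighted Spp1-free cells (-0.97 and -2.38) and without cycle-gene UMIs (-0.61 and -2.04). Ank, which exports pyrophosphate and so restrains mineral, was past 2-fold higher, at 112 against 29.2 CPM and 138 against 38.8 CPM. Of the gene cluster of small integrin-binding glycoproteins around Spp1, Dmp1 had UMIs in numbers, at 9.76 against 1.60 CPM and 14.0 against 2.84 CPM, below the minimum, while Dspp, Ibsp and Mepe held at most 1 UMI in each Spp1-high group. Pkd2, which begins next downstream, stood at 82.8 against 66.9 CPM in H3WT and 90.5 against 72.0 CPM in H3R26C.

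Of the 2 cartilage genes tested, the regulator Sox9 had ratios of 0.68 and 0.54 and Col2a1 was past 2-fold higher (2.39 and 2.41), beside 2.91% of all genes. Col2a1 stood at 13.0 and 18.7 CPM in the Spp1-free cells, so it was tested only through the Spp1-high group. No UMI of Acan was seen in either group of either library. The 12 fat cell genes summed to 207 against 205 CPM in H3WT and 111 against 368 CPM in H3R26C, and Lpl, a lipase of fat and muscle, was the 1 of 3 tested that was past 2-fold lower (-1.62 and -2.67), though not in cells without a UMI of the 6 highest-ranked genes (-0.67 and -1.24). Lpl met the minimum in at least 1 library only through the Spp1-free cells, and 1.69% of all genes were lower. Under the expression minimum in H3WT, Adipoq stood at 1.39 against 12.5 CPM and 2.26 against 27.2 CPM and Cfd at 0.279 against 10.0 CPM and 0.242 against 56.3 CPM. As a share of cells, however, an Adipoq UMI was seen in 2.92% of Spp1-high and 1.61% of Spp1-free H3WT cells and in 1.78% and 1.25% of H3R26C cells. Without any cell holding a UMI of Adipoq or Cfd, 200 genes were higher and 116 lower, 189 and 108 of them in common with all cells.

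Macrophages also make Spp1, but no UMI of Ptprc, Tyrobp or C1qa was seen in Spp1-high or Spp1-free cells of either DMSO library. The 10 macrophage and blood genes summed to 25.2 against 8.61 CPM in H3WT, with Cd68 at 14.5 CPM the most abundant, and to 15.4 against 11.3 CPM in H3R26C, with Cd14 at 8.15 CPM. Skeletal muscle genes summed to 2.93 and 1.86 CPM in the Spp1-high cells (2.20 and 2.52 CPM in Spp1-free cells), with no UMI of Myog or Myod1, and endothelial genes to 1.67 and 0.807 CPM (5.90 and 7.93 CPM), with no UMI of Cdh5 or Kdr. A count of 0 allows up to 3 UMIs among the 7189196 and 12421864 UMIs of the Spp1-high groups.

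The progenitor surface antigen Ly6a was not past 2-fold in either library. It stood at 531 against 594 CPM in H3WT and 585 against 778 CPM in H3R26C (log2 -0.16 and -0.41). At 5000 UMIs it was seen in 52.9% against 54.7% of H3WT cells and 73.5% against 61.0% of H3R26C cells. Ly6c1 was the 1 of 6 progenitor surface genes past 2-fold, and lower (-1.01 and -1.56). Its call was lost without cells holding a UMI of Adipoq or Cfd (-0.98 and -1.56). It was also lost against all kept cells below the threshold and in cells thinned to 5000 UMIs. The same held with a pseudocount of 10 CPM, at a threshold of 0.2% and in cells with a cycle-gene UMI. In cells without cycle-gene UMIs Ly6a had -1.25 and -0.80. Pdgfrb had -0.26 and -0.61 and Pdgfra -0.36 and -0.32. Of interferon genes, Ifi27l2a was the 1 of 4 past 2-fold, at 55.8 against 12.0 CPM and 211 against 27.6 CPM, with Bst2 at -0.33 and -0.26. Depth-weighted, Ifi27l2a was not past 2-fold in H3WT (0.69 and 2.23). In H3WT it met the minimum only through the Spp1-high group. Of 12 hypoxia and glycolysis genes, Ldha was past 2-fold higher in both libraries (1.5 and 1.15) but not without cycle-gene UMIs (1.17 and 0.99), and Aldoa and Pkm had 0.54 and -0.25, and 0.93 and 0.89. None of the ERK feedback (5), Yap and TGF-beta (6), p53 and CDK inhibitor (8), heat shock (5), nuclear RNA (5) and lysosome (13) genes tested was past 2-fold in both libraries.

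The differences built up below the threshold. In cells with a trace of Spp1 (above 0 but below 0.02% of UMIs), Mfap5 was already at 163 CPM for H3WT and 88.4 CPM for H3R26C, against 316 and 194.5 CPM in cells with none. It went on through 96.9 and 56.2 CPM between 0.02% and 0.05% and 52.7 and 19.8 CPM between 0.05% and 0.1% to 24.99 and 15.4 CPM between 0.1% and 0.2%. Hmga2 moved the other way, through 1.42, 12.6 and 21.1 to 41.3 CPM in H3WT and through 11.4, 32.4 and 54.0 to 86.5 CPM in H3R26C. The levels of both genes were ordered in the same way over these bins in both libraries.

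Between 0.2% and 0.5%, Hmga2 levels were 44.5 CPM for H3WT and 71.1 CPM for H3R26C cells. The summed S phase genes went from 1501 CPM between 0.1% and 0.2% to 1662 CPM there in H3WT, and from 1795 to 2341 CPM in H3R26C. The summed G2 and M phase genes went from 2551 to 3294 CPM and from 5185 to 4211 CPM. The S phase sums were thus higher in both libraries, while the G2 and M phase sums went opposite ways. In the 45 H3R26C cells at 0.5% or more, Hmga2 stood at 76.7 CPM, the S phase sum at 2611 CPM and the G2 and M phase sum at 3333 CPM. The top H3WT bin had 11 cells, too few to rank against the others, with Hmga2 at 14.5 CPM and an S phase sum of 494 CPM.

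**Figure D4:**
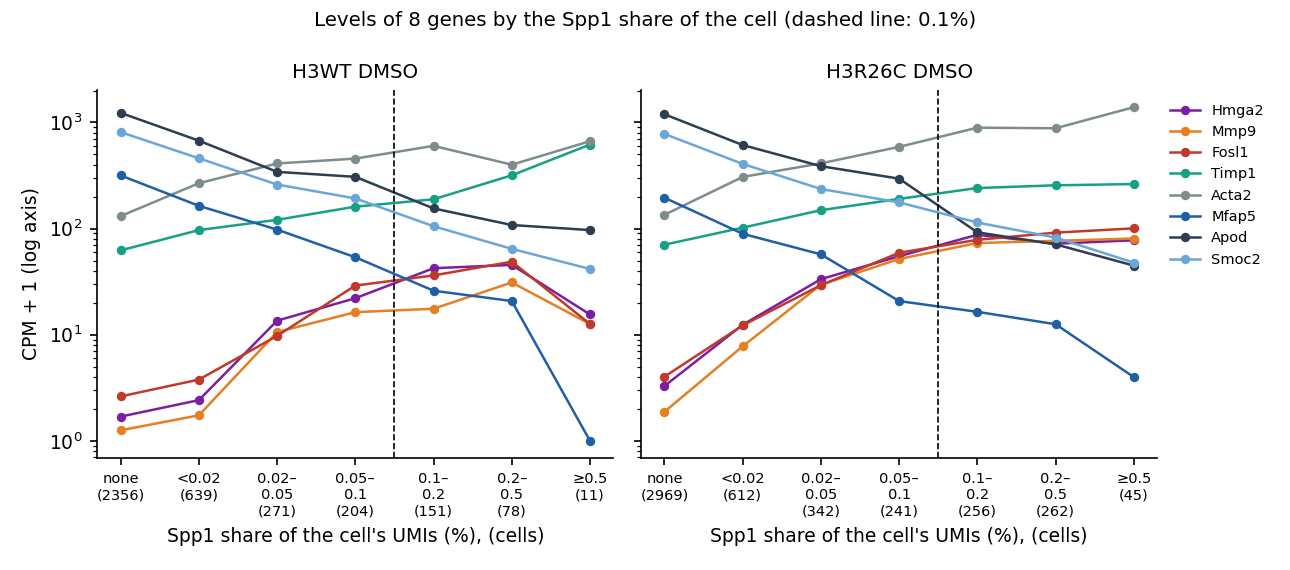
CPM plus 1 (y axis, log scale) of 8 genes in bins of the Spp1 share of the cell (x axis, with the number of cells) in H3WT DMSO and H3R26C DMSO. Hmga2, Mmp9 and Fosl1 climbed and Mfap5, Apod and Smoc2 declined over the bins left of the 0.1% line, and the top bin of H3WT, with 11 cells, had Hmga2 at 14.5 CPM.

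Spp1-high cells were not uniform. The 6 genes ranked first (Hmga2, Mmp9, Fosl1, Ccl2, Ccl5 and Hmga1) were counted in each cell, and this split was chosen after the values were seen. They were ranked by the same contrast, so their scarcity in Spp1-free cells follows from the choice and carries no reading. Whether they occurred together more often than their single shares give was not tested. At least 3 of the 6 were detected in 50 of 240 Spp1-high H3WT cells (20.8%) and 270 of 563 Spp1-high H3R26C cells (48.0%), against 6 of 2356 (0.255%) and 28 of 2969 (0.943%) Spp1-free cells. Thinned to 5000 UMIs, these shares were 8.33% and 26.5% against 0% and 0.168%. None of the 6 was detected in 104 (43.3%) and 90 (15.99%) Spp1-high cells. Of all kept cells with at least 3 of the 6, 52.1% of 96 in H3WT and 61.1% of 442 in H3R26C were Spp1-high.

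**Figure D5:**
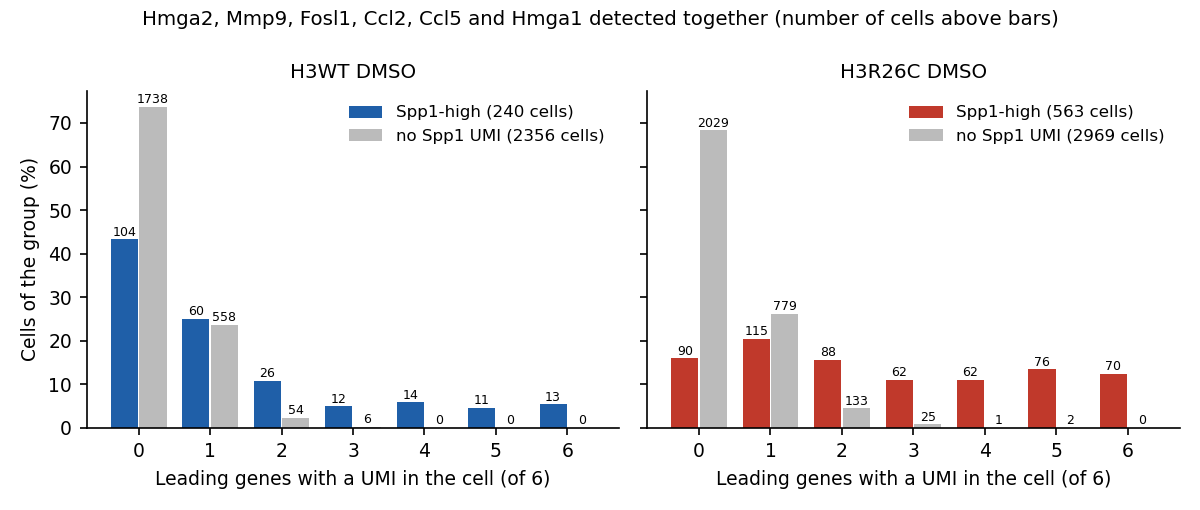
Percent of cells (y axis) by the number of 6 leading genes with a UMI in the cell (x axis), for Spp1-high and Spp1-free cells of H3WT DMSO and H3R26C DMSO, with the number of cells above each bar. Spp1-high cells spread over the whole range, with 13 and 70 cells holding all 6 genes, and no Spp1-free cell held all 6.

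Cells with at least 3 of the 6 were deep, and most had a cycle-gene UMI. Their median depth was 40384 UMIs in H3WT and 25487 in H3R26C, against 23392 and 15873 for Spp1-high cells with none, and 94% and 90% of them had a cycle-gene UMI, against 39.4% and 41.1%. Thinned to 5000 UMIs, these shares were 76% and 74.4% against 10.6% and 21.1%. Top2a, the mitotic topoisomerase, stood at 370 and 423 CPM in them and at 7.83 and 70.7 CPM in those with none. Deeper cells show more genes, and the part of depth and of doublets, which were not removed, in this split was not tested beyond the thinned shares. Grem1, a BMP antagonist picked out after its values were seen, stood at 423 and 246 CPM against 48.6 and 84.2 CPM, while it was 20.7 and 36.2 CPM in cells without Spp1.

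The 104 H3WT and 90 H3R26C Spp1-high cells with none of the 6 were also set against Spp1-free cells with none of the 6. Of 6287 genes, 40 (0.636%) were higher and 53 (0.843%) lower in both libraries, 26 and 47 of them shared with the comparison over all cells. Among the lower genes, Mfap5 stood at 20.8 against 312.5 CPM and 31.3 against 186 CPM, Apod at 204 against 1266 CPM and 144 against 1209 CPM, and Igf2, the imprinted growth factor gene next to H19 and not called over all cells, at 2.35 against 21.3 CPM and 1.36 against 43.5 CPM. The Igf2 levels of the Spp1-high cells rested on 6 and 2 UMIs, and it was tested only through the Spp1-free cells. On the higher side the top-ranked gene was Prelp, an anchoring proteoglycan, at 109 against 24.8 CPM and 101.2 against 18.5 CPM. It was followed by the adhesion receptor Adgrl3 (2.03 and 2.15) and complement C3 (2.98 and 1.78). Tenascin C (Tnc) had 2.59 and 1.64, proenkephalin (Penk) 4.16 and 1.61, and Acta2 1.55 and 2.70. Of these, Adgrl3 (4.53 and 5.97 CPM), Tnc (6.07 and 14.1 CPM) and Penk (13.8 and 10.45 CPM) were under 20 CPM in the Spp1-free cells. So were C3 in H3WT (10.8 CPM) and Prelp in H3R26C (18.5 CPM). They were tested there only through the Spp1-high group, and nothing is read from these calls. S phase genes had medians of -0.20 and 0.03 in this comparison, and elastic fibre genes -0.85 and -0.90, with 2 of 10 lower.

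Spp1-high cells also lay near each other in overall expression when Spp1 was withheld. Among the 30 nearest cells, over 20 principal components of 2000 variable genes, 31.8% around a Spp1-high H3WT cell were Spp1-high, against 1.45% around a Spp1-free cell and 6.47% of the library. In H3R26C DMSO the values were 53.6%, 1.93% and 11.9%. For 53 Spp1-high H3WT cells (22.1%) and 371 Spp1-high H3R26C cells (65.9%), at least 50% of neighbours were Spp1-high. Around Spp1-high cells with none of the 6 genes the share was 23.1% and 28.6%, and around those with at least 3 it was 53.4% and 68.3%. Leaving out the S, G2 and M phase genes gave 32.0% and 53.1% around Spp1-high cells.

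Promoter windows of the genes that differed with Spp1 were described with the same 4 sets of letters. RefSeq windows were matched for 145 of the 189 higher and 70 of the 110 lower genes, and for 5205 of the 6495 tested. E2F letters were in windows of 6.90% of the higher, 2.86% of the lower and 2.84% of the tested genes, and CCAAT letters in 47.6%, 34.3% and 40.4%. AP-1 letters were in 8.28%, 5.71% and 4.84%, and RUNX letters in 12.4%, 7.14% and 11.9%. The E2F count rests on 10 higher genes and 2 lower ones.

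The same rule was applied to the 5-Aza libraries, which had no part in choosing the genes. There 1293 of 5993 kept H3WT cells (21.6%, 20.5 to 22.6) and 5333 of 7619 kept H3R26C cells (70.0%, 69.0 to 71.0) were Spp1-high. Barcodes under 5000 UMIs had Spp1 at 286 and 2167 CPM, and 2278 H3WT and 285 H3R26C kept cells had no Spp1 UMI. Of the 189 genes higher without 5-Aza, 185 in H3WT 5-Aza and 184 in H3R26C 5-Aza had the same direction, 95 and 112 of them past 2-fold. Of the 110 lower genes, 107 and 107 had the same direction, 48 and 78 past 2-fold. Background shares past 2-fold were 2.11% higher and 1.48% lower in H3WT 5-Aza, and 3.43% and 3.59% in H3R26C 5-Aza. The share of all tested genes with the same direction is not given, so nothing is read from the direction counts.

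Differences were mostly smaller with 5-Aza. The median log2 ratio of the 189 genes was 1.83 and 2.07 without and 1.02 and 1.10 with 5-Aza, and that of the 110 genes -1.40 and -1.77 without and -0.92 and -1.30 with it. Of the 30 named genes, 24 in H3WT and 26 in H3R26C 5-Aza were past 2-fold the same way. Hmga2 (3.56 and 2.93), Fosl1 (3.06 and 2.53), Pi16 (-3.04 and -3.59) and Mfap5 (-2.15 and -3.10) kept some of the widest ratios. Those not past 2-fold were Ccl2 (0.79), Ccl5 (0.49), Itga6 (0.82), Mfap4 (-0.41), Gfra1 (-0.85) and Igfbp5 (0.04) in H3WT 5-Aza, and Ccl2 (0.91), Ccl9 (0.98), H19 (-0.54) and Mfap4 (-0.84) in H3R26C 5-Aza. Since the genes were ranked for wide ratios without 5-Aza, their smaller ratios elsewhere carry no reading.

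Spp1-high cells of the 2 DMSO libraries differed from each other in some genes. Of 6784 genes with at least 20 CPM in either, 131 were at least 2-fold higher in H3R26C and 122 lower, and 31 and 11 of these were also past 2-fold the same way between the Spp1-free cells of the libraries. Over all 6784 genes, 53 (0.781%) were past 2-fold higher and 14 (0.206%) lower between the Spp1-free cells. Among the 10 widest each way, Stmn2, a neuronal microtubule destabiliser, stood at 66.9 CPM in H3R26C and 1.39 CPM in H3WT, beside 0.716 and 0.0198 CPM in Spp1-free cells. Ngfr, the low-affinity neurotrophin receptor, stood at 48.5 and 4.88 CPM, beside 1.76 and 0.0594 CPM. The groups differed in make-up, with 48.0% against 20.8% of cells holding at least 3 of the 6 leading genes, and within those cells Ngfr stood at 76.7 and 15.8 CPM. Bace2 (97.7 and 5.298 CPM) and Pi15 (33.1 and 3.63 CPM) were also higher in H3R26C among Spp1-free cells, at 44.0 and 5.62 CPM and 151 and 15.9 CPM. In H3WT, the acid-balancing carbonic anhydrase Car9 stood at 66.4 against 2.74 CPM and Cytl1, a cytokine of cartilage, at 40.3 against 4.68 CPM. Among Spp1-free cells Car9 was also higher in H3WT (15.1 against 2.15 CPM), while Cytl1 stood at 0.653 against 1.68 CPM. With 1 culture each, these are values of those libraries, and genotype and culture cannot be told apart.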

How the data were processed

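H3WT and H3R26C cells given DMSO or 5-Aza were each profiled as 1 10x Genomics library. Per the labels, the submitters' processing notes name Cell Ranger 6, Seurat 4 and the mm10 build; the deposited matrices hold raw UMI counts of 32285 genes per barcode, with no normalisation, and no doublet calls were used here. The members, gene lists and comparisons were chosen with earlier results of these data known.

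Barcodes with at least 5000 UMIs, 1500 genes and at most 20% mitochondrial UMIs were kept (86871326 UMIs with a median of 22420 a cell in H3WT DMSO, 84060490 with 16598 in H3R26C DMSO). Counts were summed over Spp1-high and Spp1-free cells within each library and scaled to CPM without Spp1. Genes needed 20 CPM in either group. A call needed a log2 ratio of at least 1 or at most -1 in both DMSO libraries, with a pseudocount of 1 CPM. Named genes were the 15 with the highest and the 15 with the lowest ratio by the library nearer to 0, the 3 most abundant members of a list, list members past 2-fold, Ly6a and Spp1; others are marked as chosen after their values were seen, or were named from the lists as markers, from the other rankings or as neighbours of Spp1. Shares have Clopper-Pearson and folds conditional exact 95% intervals. Thinning drew 5000 UMIs per cell without replacement. Neighbours were found with scanpy 1.11.5 and scikit-learn 1.9.0; the scripts ran in Python 3.11.15 with NumPy 2.4.6 and SciPy 1.17.1 and were tested on simulated data. Gene positions were taken from GENCODE M21 and promoter windows from RefSeq, both on GRCm38.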

Additional observations from a re-analysis of the deposited data

Results flagged for a closer look

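Of the genes tested in both DMSO libraries, 3 were past 2-fold in opposite directions in Spp1-high cells of the H3WT and H3R26C libraries, and this difference was not tested. Dlk1, a membrane inhibitor of fat cell formation, had log2 ratios of 1.92 in H3WT and -1.51 in H3R26C. Scg2, a secretory granule protein, had 1.14 and -3.05, and Pappa2, a protease of IGF-binding proteins, 2.15 and -1.30. With 5-Aza, Scg2 had 2.16 and -2.03, Pappa2 1.86 and 0.26, and Dlk1 -0.28 and -0.43. In DMSO cells without cycle-gene UMIs, Scg2 had 2.25 and -2.02, Pappa2 2.63 and -0.28, and Dlk1 2.45 and -0.63. Pappa2 and Dlk1 were thus not past 2-fold in H3R26C there. Outside the kept cells, 33 barcodes of H3WT DMSO and 32 of H3R26C DMSO under 5000 UMIs held at least 2 Spp1 UMIs and reached the 0.1% share.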

How the results depend on the processing

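No paired analysis was possible because each group is 1 library, numbered 1, so that groups share fewer than 2 replicate numbers; Spp1-high and Spp1-free cells were compared within each library. The share of Spp1-high cells in H3WT and H3R26C DMSO was 7.47% and 13.1% in thinned cells, 12.0% and 17.0% at a threshold of 0.05%, 2.40% and 6.495% at 0.2%, and 5.18% and 9.52% without the 10% of cells with the most UMIs; H3R26C had the higher share in each. Against 189 higher and 110 lower genes, counts were 106 higher with depth-weighted Spp1-free cells (98 in common), 508 and 235 at a minimum of 1 CPM, 89 and 67 at 50 CPM, 40 and 69 without cycle-gene UMIs, 68 higher without the deepest 10% of cells, and, added after seeing the data, 40 and 53 without the 6 leading genes. The other alternatives, of which those limited to cells with a cycle-gene UMI (260 and 164) or without Adipoq and Cfd (200 and 116) were also added later, gave 133 to 260 higher and 75 to 164 lower. List genes, 57 higher and 13 lower, numbered 30 higher when depth-weighted, 97 higher at 1 CPM, and 9 and 6 without cycle-gene UMIs. With a pseudocount of 10 CPM, 15 rather than 24 named genes were past 2-fold in H3WT 5-Aza. Of 768 ratios of the 30 named genes under the 13 alternatives that can move a ratio, taken with no CPM minimum, 751 stayed past 2-fold the same way and 14 did not reach it. The other 3 changed sign, all in H3WT DMSO: Ccl2 (-0.15) without cycle-gene UMIs, and Tk1 (-0.05) and Uhrf1 (-0.26) without the 6 leading genes; the cause was not tested. Depth limits genes under 20 CPM.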
